A study of Drosophila melanogaster with 9 samples.

Results

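The genes described here encode the vacuolar proton pump (V-ATPase) and the proteases that work in the compartments it acidifies. They were all genes with a symbol starting with Vha and the 5 cathepsins CtsB, CtsD, CtsF, CtsK1 and CtsL1. The rule gave 38 genes of the 17187 genes or unnamed entries in the count files, of which 33 belong to the pump and 5 are proteases. CtsD is listed under the symbol cathD. RNA of whole Drosophila melanogaster larvae was sequenced from 3 genotypes with 3 replicate libraries each. Every library came from 20 pooled larvae raised at 28 °C, so p-values measure the spread between pools. The genotypes were w1118, a laboratory strain with a mutated white gene that serves as the control; hopTum, which carries a dominant gain-of-function allele of hopscotch, the fly JAK kinase; and tuSz1, a temperature-sensitive strain whose blood cells encapsulate the animal's own fat body. The series title asks how loss of self-tolerance alters gene expression. The labels name no further allele, driver, sex or larval stage for any genotype.

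The V-ATPase has a cytosolic sector, V1, which hydrolyses ATP, and a membrane sector, V0, through which protons pass. A rotor of V1 subunits D and F couples hydrolysis to the turning of a ring of small c subunits in V0, and the acid it makes in lysosomes activates cathepsins. In insects the pump also sits in the plasma membrane of transporting epithelia such as the Malpighian tubule and the acid-secreting copper cells of the midgut, and many of its subunits are encoded by several gene copies.

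Total counts ran from 9552828 to 14517286 per library. Levels are given in CPM, counts per 1000000 reads of the library size after adjustment by edgeR's TMM factors. On this scale 3 counts corresponded to 0.2 to 0.357 CPM, a floor that covers counting error only. The white gene w was at 1.76 to 3.18 CPM in w1118, 136 to 219 in hopTum and 75.1 to 136 in tuSz1. Levels of hop were 135 to 158, 178 to 479 and 168 to 192 CPM, which cannot show which allele a library carries. tuSz1 replicate 3 stood apart: its summed salivary glue transcripts were at 33.1 CPM, against 56050 and 57460 in the other tuSz1 libraries. Its TMM factor was 0.5785, the lowest of the 9. Results on these genes that rest on it are given with and without it. Glue transcripts also differed between the other genotypes, with sums of 47710 to 61620 CPM in w1118 and 12430 to 16540 in hopTum. None of the 6 glue genes was called in hopTum against w1118 (edgeR). Lamellocyte markers moved with genotype: mean CPM of PPO3 was 5.27 for w1118, 11510 for hopTum and 1552 for tuSz1, and the lamellocyte list as a whole was at 9.47 to 13.6, 15540 to 17500 and 2508 to 2679 CPM. Both tested lamellocyte markers, PPO3 and ItgaPS4, were called higher in each mutant than in w1118 (edgeR). Of 4 tested plasmatocyte markers, NimC1 was called higher in both mutants and Sr-CI in hopTum, each against w1118 (edgeR). By contrast, eater and crq had negative log2 fold changes in both mutants and were not called (edgeR). The plasmatocyte list summed to 37.9 to 89.4 CPM in w1118, 62.9 to 94.7 in hopTum and 28.8 to 70.6 in tuSz1. Listed at 0 in every library were atilla of lamellocytes and Hml and He of plasmatocytes, each with several listed transcripts. The part of blood cells in the results below was not tested. These are whole animals, so fewer cells of a type and less RNA per cell cannot be told apart.

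How well a pump gene could be read depended on its transcripts. Counts were deposited per transcript, and 15 of the 38 genes had 1 listed transcript while 23 had several. The 15 held 97.5% of all reads of these genes. In all, 8 of the 38 had 0 counts in all 9 libraries.
Of these 8, 7 had several transcripts: Vha100-1, Vha16-3, Vha36-3, Vha44, Vha55, VhaAC45RP and VhaPPA1-1. In the dm6 annotation of FlyBase (through Ensembl), Vha100-1 and Vha44, with 10 and 5 transcripts, had no exonic base that belonged to 1 transcript only, and VhaPPA1-1 had 4. The single-transcript gene at 0 was Vha16-2, of whose exonic bases 84.5% overlap an antisense RNA gene, asRNA:CR46049, on the other strand. Vha55 and Vha44 are the only genes for the V1 subunits B and C under this naming rule, so subunits B and C had no reads to compare. A gene at 0 is described as listed at 0, not as silent. The same holds for the marker and lysosomal genes listed at 0, all of which have several transcripts. Over all genes, 12% of the 9867 single-transcript entries and 32.1% of the 7320 genes with several transcripts were at 0. A further 6 members had counts but were too low to be tested: CtsB, Vha100-5, Vha68-2, VhaAC45, VhaM9.7-a and VhaM9.7-b, with between 1 and 72 reads over all 9 libraries.

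**Figure D1:**
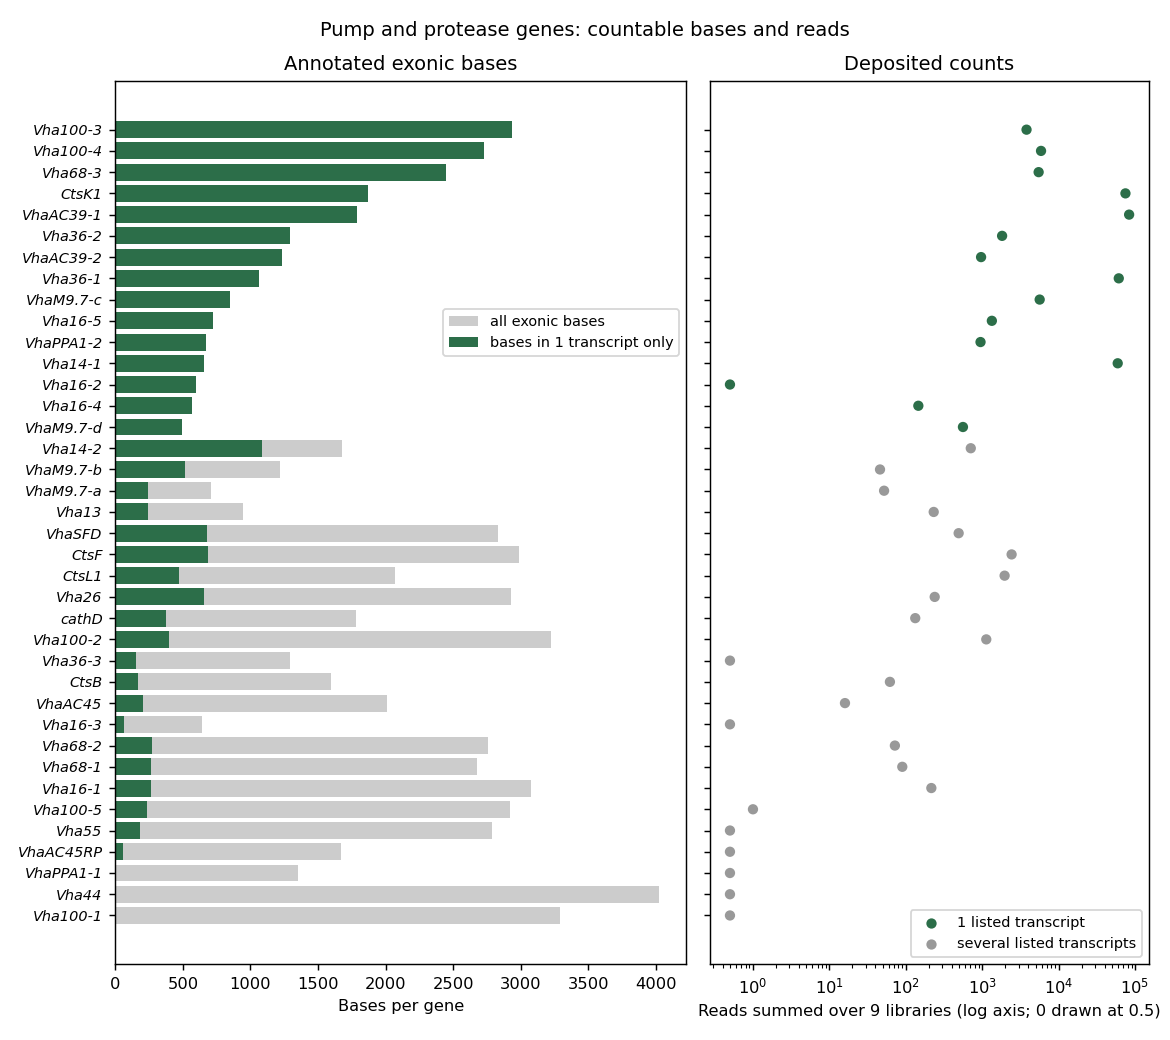
The left panel plots exonic bases per gene in grey and, in green, the bases that belong to 1 annotated transcript only; the right panel plots reads summed over the 9 libraries on a log axis, with 0 drawn at 0.5. Genes with 1 listed transcript reach 83749 reads (VhaAC39-1), whereas genes with few green bases, such as Vha55, Vha44 and Vha100-1, are listed at 0.

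The 24 tested members were 14 genes with 1 transcript and 10 with several. Of the 14 pump subunit types, 8 had a single-transcript gene with counts: A, D and F of V1, and a, c, c", d and e of V0. Subunits E, G and H of V1 were read only through genes with several transcripts. Levels of the 10 genes with several transcripts are not taken as those of the whole gene, as reads shared between transcripts appear to be missing. That was inferred from the counts, since the handling of such reads is not given.

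Levels could be set side by side, per kb of exon, for the 14 single-transcript genes. Of these, 4 stood far above the rest in every library, and 3 of these are the most counted copies of their pump subunits. Vha14-1, for the rotor subunit F, was at 618 ± 131 CPM per kb (SD, n = 3) in w1118. Vha36-1, for the rotor subunit D, was at 385 ± 17.9 and VhaAC39-1, for subunit d, which joins the rotor to the c ring, was at 298 ± 42.2 CPM per kb. The protease CtsK1, a cysteine protease of the papain family, was at 310 ± 47.5 CPM per kb, within the spread of VhaAC39-1. These neighbours exchanged ranks between genotypes, as VhaAC39-1 was above CtsK1 in hopTum and tuSz1. VhaM9.7-c, for the small membrane subunit e, followed at 68.7 ± 15.1 CPM per kb in w1118 and was the fifth in all 3 genotypes. The other 9 genes lay between 1.96 and 19.2 CPM per kb in w1118, and most neighbours in that order overlapped. Among them were further copies of subunits whose most counted copy is named above: Vha36-2 for subunit D, at 6.24 ± 2.25, and VhaAC39-2 for subunit d, at 6.74 ± 2.82 CPM per kb. Vha68-3, for the catalytic subunit A, was at 19.2 ± 7.82 CPM per kb. Vha16-5 and Vha16-4, for the proteolipid c, were at 18.8 ± 1.73 and 1.96 ± 0.864, and VhaPPA1-2, for c", was at 15.2 ± 2.42. Copies of these subunits with several transcripts could not be ranked. Among them, Vha68-1, Vha68-2 and Vha16-1 held 90, 72 and 216 reads over all libraries, and VhaPPA1-1 was listed at 0. Subunits D and F also have such copies, Vha36-3 and Vha14-2, which held 0 and 709 reads, as do subunits a and e. The order therefore does not give the level of subunits A, D, F, a, c, c" and e as a whole. Exceptions to the order by genotype were Vha100-4, which rose from rank 11 in w1118 to rank 6 in tuSz1 (48.4 ± 16.7 CPM per kb), and Vha36-2, which rose from rank 13 to rank 6 in hopTum (25.8 ± 10.3 CPM per kb).

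**Figure D2:**
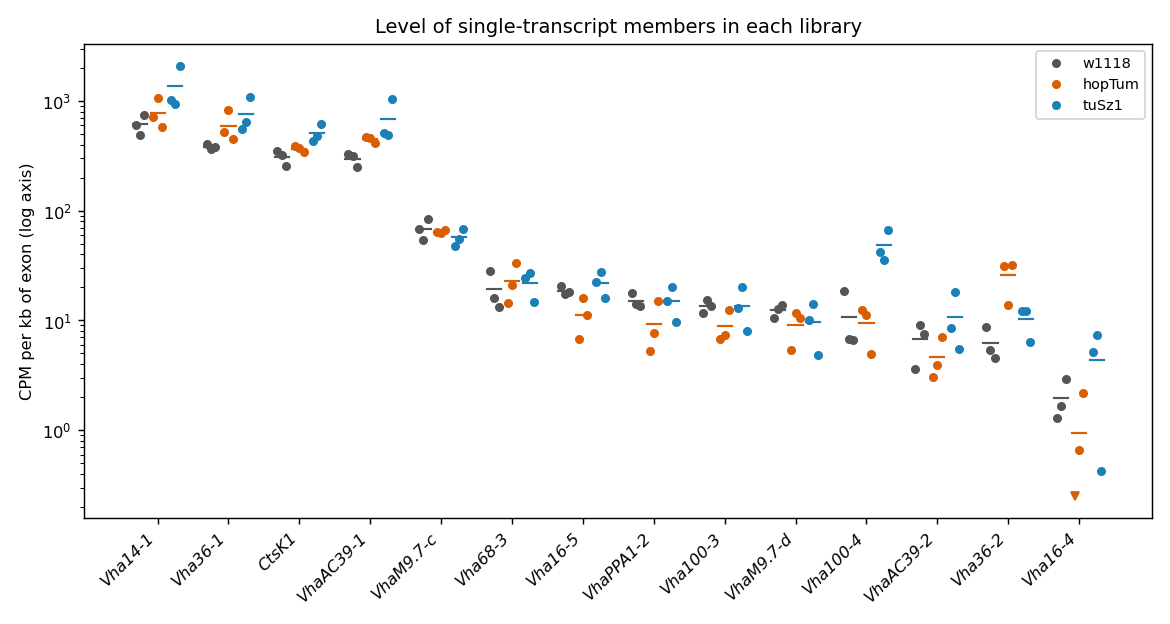
Each point is the level of a single-transcript member in 1 library, in CPM per kb of exon on a log axis, with genotype means as lines; a triangle at the bottom marks a library at 0. Vha14-1, Vha36-1, CtsK1 and VhaAC39-1 stand above all others, Vha100-4 is raised in tuSz1, and Vha36-2 is raised in hopTum.

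Differences between genotypes were tested with edgeR's quasi-likelihood test over all 9106 genes that passed the filter on low counts, and a gene was called at a Benjamini-Hochberg adjusted p under 0.05. In hopTum against w1118, 1 of the 24 tested members was called, Vha36-2, which was higher. Of all tested genes, 18.1% were called in that comparison, 11.5% higher and 6.65% lower. In tuSz1 against w1118, 4 members were called: Vha100-4 and VhaAC39-1 were higher, and Vha13 and Vha26 were lower. That is 16.7% of the tested members, near the share of all tested genes, which was 16.3% (9.98% higher and 6.33% lower). In tuSz1 against hopTum, 3 were called, Vha100-2 and Vha100-4 higher and Vha13 lower, which is 12.5% of members against 9.66% of all tested genes (5.52% higher and 4.14% lower). No tested protease among the 5 cathepsins was called in any of the 3 comparisons (edgeR). The 2 comparisons with w1118 share its libraries, and the 2 with tuSz1 share those of tuSz1.

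Directions differed among the members. The median log2 fold change of the 24 tested members was -0.14 in hopTum against w1118, 0.22 in tuSz1 against w1118 and 0.61 in tuSz1 against hopTum, beside -0.05, 0.08 and 0.03 over all tested genes. Genotypes did not overlap for 4 members that were higher and 3 that were lower in hopTum than in w1118, where 39.0% of all tested genes did not overlap (20.4% higher and 18.6% lower). The counts were 6 and 2 in tuSz1 against w1118, beside 38.6% of all tested genes (21.4% and 17.1%). In tuSz1 against hopTum they were 7 and 4, beside 29.1% (13.7% and 15.5%). With libraries scaled to total counts in place of TMM, the median of all genes moved to -0.41, -0.70 and -0.39, and directions below are relative to TMM scaling. Under total count scaling 1 member was called higher and 4 lower in tuSz1 against w1118, in place of 2 and 2. In tuSz1 against hopTum it gave 2 higher and 3 lower, and DESeq2's size factors gave 2 and 2, in place of 2 and 1.

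**Figure D3:**
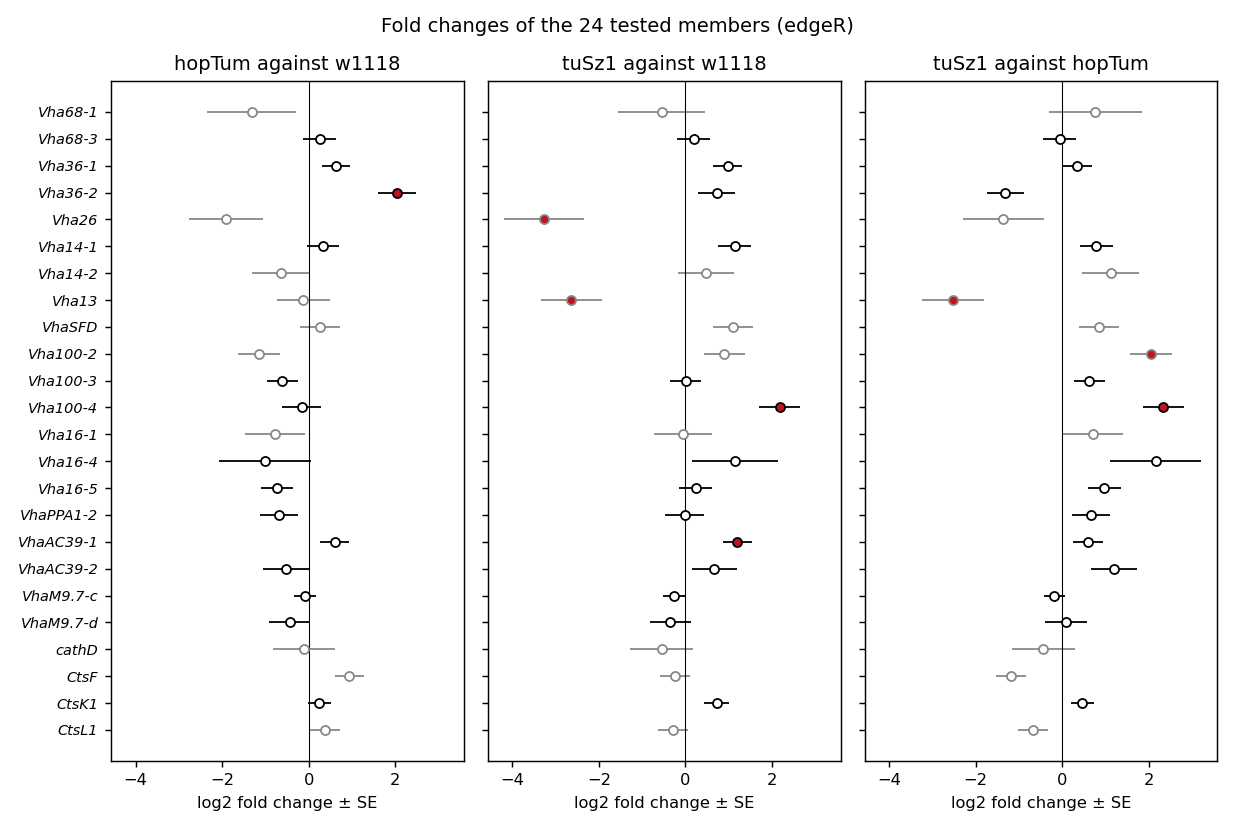
Log2 fold changes of the 24 tested members with their standard errors (edgeR), 1 panel per comparison; black outlines mark genes with 1 listed transcript, grey outlines those with several, and red fill an adjusted p under 0.05. Points lie on both sides of 0 in each panel, and most are not called. The called genes are Vha36-2 in hopTum, and Vha100-4, VhaAC39-1, Vha13, Vha26 and Vha100-2 in the comparisons of tuSz1.

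Subunit a of V0 carries the path of the protons and sets which membrane the pump goes to, and it has 5 gene copies. Vha100-4 (3R:18386841-18389805 in dm6, minus strand) is known from the acid-producing midgut. It was at 50.4, 18.7 and 18.2 CPM in w1118 replicates 1 to 3, at 34.2, 30.4 and 13.4 CPM in hopTum, and at 114, 98.0 and 184 CPM in tuSz1. All 3 tuSz1 libraries lay above all 6 others, and hopTum and w1118 overlapped. The log2 fold change was 2.18 in tuSz1 against w1118 (SE 0.47, adjusted p = 0.00919, edgeR), a 4.54-fold difference. Against hopTum it was 2.34 (SE 0.47, adjusted p = 0.0103, edgeR). Without tuSz1 replicate 3 it was 1.87 and 2.03, and both calls remained (adjusted p = 0.0308 and 0.0314, edgeR). Both calls were made in each of the 9 other settings and the 6 fits without 1 library. Of the 2728 exonic bases of Vha100-4, 1.7% overlap the gene cona on the other strand.

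As a sum, enterocyte markers of the gut were higher in tuSz1 than in both other genotypes, as was Vha100-4. Fat body markers, given below, were also higher in tuSz1 than in w1118. The 12 digestive enzyme genes taken as enterocyte markers summed to 17310 to 34860 CPM in w1118, 11050 to 22090 in hopTum and 53570 to 90210 in tuSz1. Of the 10 that were tested, 5 were called higher in tuSz1 than in w1118 and 7 higher than in hopTum (edgeR), where 9.98% and 5.52% of all tested genes were called higher. In hopTum against w1118, 2 of the 10 were called lower (edgeR), beside 6.65% of all tested genes, while Vha100-4 was not called. In each genotype the 3 libraries stood in the same order for the sum of the 12 markers and for Vha100-4. Per 1000 reads of the 12 markers, Vha100-4 had 1.44, 0.801 and 1.05 reads in w1118, 1.55, 1.42 and 1.22 in hopTum, and 1.57, 1.83 and 2.04 in tuSz1. The tuSz1 libraries stayed above the others by this ratio, which was 1.65 times that of w1118 and 1.3 times that of hopTum. Its exact two-sided permutation p was 0.1 in both comparisons, the smallest that 3 against 3 libraries allow. The ratio was formed after the values had been seen, and the part of gut cells in the result was not tested further. The transcription factors lab and Ptx1, which mark copper cells, summed to 6.95 to 9.33 CPM in w1118, 4.29 to 13.2 in hopTum and 6.03 to 9.13 in tuSz1. Neither was called in any comparison (edgeR), and both have several transcripts. The fat body list summed to 11830 to 23240 CPM in w1118, 22060 to 78800 in hopTum and 74270 to 194700 in tuSz1. Of its 3 tested genes, 2 were called higher in tuSz1 than in w1118 and 1 higher than in hopTum (edgeR). The nephrocyte list summed to 189 to 214, 158 to 254 and 160 to 315 CPM, and none of its 3 tested genes was called (edgeR).

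**Figure D4:**
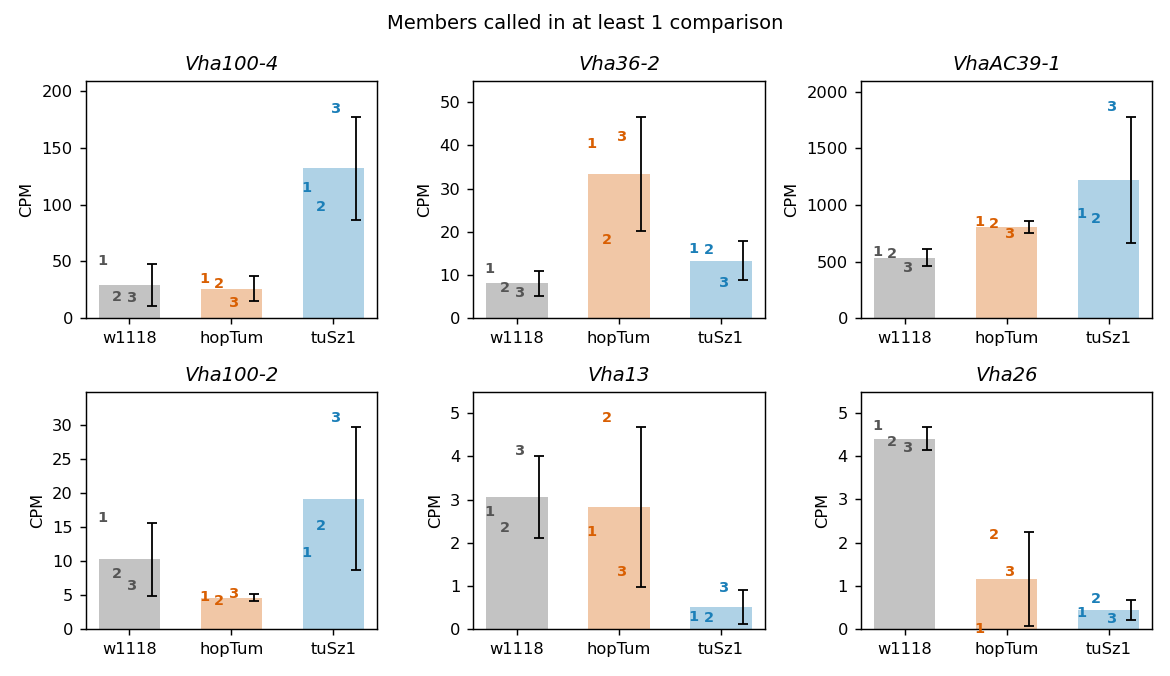
CPM of the 6 members called in at least 1 comparison; digits are replicate numbers, bars are means and whiskers are SDs (n = 3). The tuSz1 libraries of Vha100-4 sit between 98.0 and 184 CPM, all above the others, and tuSz1 replicate 3 is the highest tuSz1 library for Vha100-4, VhaAC39-1 and Vha100-2.

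Of the other copies of subunit a, Vha100-3 and Vha100-2 were tested, and Vha100-1 and Vha100-5 had 0 and 1 reads in all. Vha100-3, which has 1 transcript, had a mean CPM of 39.8 ± 5.3 in w1118, 26.0 ± 9.08 in hopTum and 40.1 ± 17.6 in tuSz1 (SD, n = 3), and its genotypes overlapped. Per kb, Vha100-4 made up 61.2%, 30.9% and 32.8% of the summed reads of Vha100-4 and Vha100-3 in w1118, and 76.4%, 64.3% and 89.3% in tuSz1. These shares do not depend on library scaling, and they did not overlap, with an exact two-sided permutation p of 0.1, the smallest possible. In hopTum the shares were 64.9%, 60.2% and 28.4% and overlapped both other genotypes.

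Vha100-2 lies 517 bases from Vha100-4 on the same strand. Its 2 transcripts differ in their 5′ exons, where 178 and 216 noncoding bases belong to 1 transcript only. It was at 16.4, 8.07 and 6.30 CPM in w1118, 4.70, 4.05 and 5.09 in hopTum, and 11.2, 15.2 and 31.1 in tuSz1. Every tuSz1 library lay above every hopTum library, and tuSz1 overlapped w1118. The log2 fold change in tuSz1 against hopTum was 2.05 (SE 0.49, adjusted p = 0.0215, edgeR). Without tuSz1 replicate 3 it was 1.52 and the call was lost (adjusted p = 0.0644, edgeR). It was also lost when any 1 hopTum library was left out, with adjusted p-values up to 0.0651 (edgeR).

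Of the highly counted pump genes, 1 passed the test, in tuSz1 against w1118. VhaAC39-1 (X:3880748-3882967, plus strand), the subunit d gene, was at 587, 566 and 447 CPM in w1118, 846, 833 and 747 in hopTum, and 925, 879 and 1868 in tuSz1. The 3 genotypes did not overlap. The log2 fold change was 1.2 in tuSz1 against w1118 (SE 0.34, adjusted p = 0.0316, edgeR) and 0.60 in hopTum against w1118 (adjusted p = 0.24, edgeR). The tuSz1 call rested on replicate 3, since without it the value was 0.76 (adjusted p = 0.122, edgeR). It was also lost without each w1118 library in turn, at 1.08 to 1.27. Of the 9 other settings, 5 kept the call. The adjusted p was 0.0869 with the replicate number as a block and 0.0751 with single-transcript genes only (edgeR). In a fit of only the 6 libraries compared it was 0.0778 (edgeR). With total count scaling the value was 0.32 (adjusted p = 0.38, edgeR), where the median of all genes was -0.70.

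Vha14-1 had the same order of genotypes, at 399, 325 and 497 CPM in w1118, 471, 698 and 380 in hopTum, and 677, 619 and 1390 in tuSz1. The tuSz1 libraries lay above those of w1118, with a log2 fold change of 1.14 that missed the threshold (adjusted p = 0.0593, edgeR). Vha36-1 was at 430, 393 and 407 CPM in w1118, 554, 873 and 480 in hopTum, and 595, 689 and 1148 in tuSz1. Both mutants lay above w1118 in every library, by 0.63 in hopTum (adjusted p = 0.214, edgeR) and 0.98 in tuSz1 (adjusted p = 0.0664, edgeR) on the log2 scale. ATP6AP2, an accessory protein of pump assembly formerly named VhaM8.9 and not a member by symbol, was at 731, 654 and 605 CPM in w1118, 1100, 1371 and 838 in hopTum, and 1045, 1112 and 2038 in tuSz1. Its log2 fold change in tuSz1 against w1118 was 1.08 (adjusted p = 0.0504, edgeR). In all 4 genes tuSz1 replicate 3 was the highest of the 9 libraries. Without it, Vha14-1 and Vha36-1 were 0.68 and 0.65 above w1118 (adjusted p = 0.24 and 0.238, edgeR), and ATP6AP2 was 0.71 above it (adjusted p = 0.191, edgeR). VhaM9.7-c, also with 1 transcript and well counted, had a mean CPM of 58.3 ± 12.8 in w1118, 54.9 ± 1.58 in hopTum and 48.5 ± 9.07 in tuSz1 (SD, n = 3), and its genotypes overlapped.

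Malpighian tubule is a tissue where the pump is abundant, and its markers are given here. Uro, the tubule's urate oxidase gene, was called higher in hopTum and tuSz1 than in w1118, with log2 fold changes of 3.64 (adjusted p = 0.00388, edgeR) and 4.94 (adjusted p = 9.36e-04, edgeR). Of 11 tubule markers 7 were tested and CapaR was at 0. Against w1118, 1 of the 7 was called higher in hopTum, where 11.5% of all tested genes were, and 2 in tuSz1, where 9.98% were (edgeR). In hopTum 4 of the 7 had a negative log2 fold change. The list summed to 52.7 to 59.99 CPM in w1118, 116 to 666 in hopTum and 572 to 1165 in tuSz1. Without Uro, the other 10 markers summed to 30.3 to 33.7 CPM in w1118, 29.5 to 32.8 in hopTum and 37.2 to 48.5 in tuSz1. The part of tubule RNA in the levels of pump genes was not tested.

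In hopTum the called member was Vha36-2 (2R:12257282-12258652, plus strand), a low-level copy of the rotor subunit D. It was at 11.4, 6.93 and 5.94 CPM in w1118, 40.2, 18.1 and 41.9 in hopTum, and 16.0, 15.8 and 8.22 in tuSz1. Every hopTum library lay above all 6 others, while tuSz1 overlapped w1118. The log2 fold change in hopTum against w1118 was 2.04 (SE 0.44, adjusted p = 0.0082, edgeR), a 4.13-fold difference. The call was made in each of the 9 other settings and the 6 fits without 1 library, with values of 1.74 to 2.37. Against hopTum, tuSz1 was lower by a log2 fold change of -1.32 that missed the threshold (adjusted p = 0.0762, edgeR). Vha36-3, also for subunit D, was listed at 0 and is left out of the shares that follow. Per kb, Vha36-2 made up 2.13%, 1.43% and 1.18% of the summed reads of Vha36-2 and Vha36-1 in w1118. The shares were 5.62%, 1.67% and 6.68% in hopTum, and 2.16%, 1.85% and 0.585% in tuSz1. These shares overlapped between hopTum and w1118 (exact two-sided permutation p = 0.2), as hopTum replicate 2, with the lowest Vha36-2 and the highest Vha36-1 of its genotype, lay within the range of w1118.

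Low-level copies of pump subunits are known from the fly testis, so testis markers are given beside Vha36-2. The 16 listed markers, of which 15 were in the files and 11 tested, summed to 330 to 488 CPM in w1118, 320 to 635 in hopTum and 304 to 616 in tuSz1. Of these, twe, dj and bgcn were listed at 0 in all libraries. Each has several listed transcripts, so the zeros cannot show that testis RNA was absent. In hopTum against w1118, topi, a spermatocyte transcription regulator, was called higher and sa, another, was called lower (edgeR). topi was at 24.04, 19.6 and 11.7 CPM in w1118 and 48.0, 25.5 and 58.7 in hopTum, with a log2 fold change of 1.26 (adjusted p = 0.0328, edgeR). Within hopTum, the lowest library for both topi and Vha36-2 was replicate 2 and the highest was replicate 3. Most testis markers did not move like topi: 9 of the 11 tested had a negative log2 fold change in hopTum against w1118, with a median of -0.64 over the 11. Within hopTum, replicate 1 was the lowest library for 7 of them and replicate 2 for 3, and replicate 3 was the highest for 9. The part of testis RNA in the level of Vha36-2 was not tested.

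Other low-level copies varied widely between libraries of 1 genotype. Among the 14 tested single-transcript members, tuSz1 replicate 3 was the lowest library of its genotype for 8: Vha100-3, Vha16-4, Vha16-5, Vha36-2, Vha68-3, VhaAC39-2, VhaM9.7-d and VhaPPA1-2. It was the highest for the other 6: Vha100-4, Vha14-1, Vha36-1, VhaAC39-1, VhaM9.7-c and CtsK1. It was never the middle library. Over all tested genes it was the lowest of tuSz1 for 37.1% and the highest for 45.2%. Over the 6314 tested genes with 1 listed transcript these shares were 41% and 44.2%, so it was seldom the middle library of those genes either. It was the lowest for 10 of the 11 tested testis markers. VhaAC39-2, the second copy of subunit d, shows the pattern, at 10.6, 22.2 and 6.79 CPM in tuSz1 replicates 1 to 3, while its main copy VhaAC39-1 was at 925, 879 and 1868. None of these 8 genes was called in tuSz1 against w1118 (edgeR). This grouping was made after the values had been seen, and it is a description without a test.

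**Figure D5:**
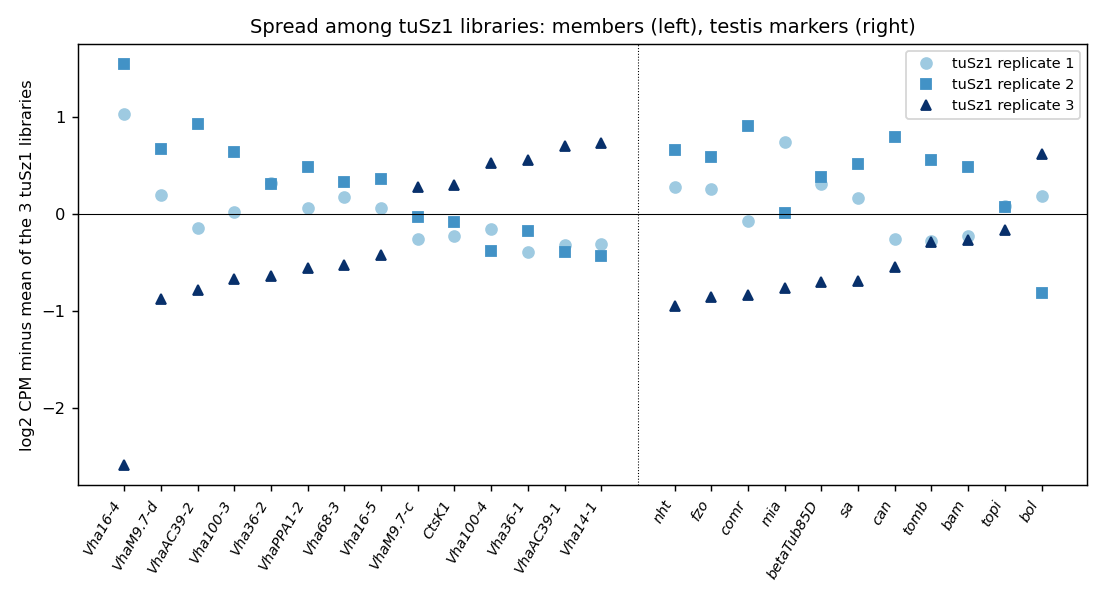
Log2 CPM of each tuSz1 library minus the mean of the 3, for the 14 tested single-transcript members at left and the 11 tested testis markers at right of the dotted line. Replicate 3, drawn as triangles, is at the bottom for 8 members and at the top for 6, and it is at the bottom for 10 of the 11 testis markers.

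Both peripheral stalk genes, Vha13 for subunit G and Vha26 for subunit E, were called lower in tuSz1. The stalks hold V1 in place against the turning rotor. Their means were under 5 CPM, and they are named because so few members were called. Vha13 was at 2.72, 2.33 and 4.13 CPM in w1118, 2.25, 4.90 and 1.32 in hopTum, and 0.285, 0.262 and 0.953 in tuSz1, where its libraries held 3, 3 and 8 reads. The tuSz1 libraries lay below all others, with log2 fold changes of -2.64 against w1118 (SE 0.71, adjusted p = 0.026, edgeR) and -2.52 against hopTum (SE 0.72, adjusted p = 0.0467, edgeR). Vha26 was at 4.71, 4.33 and 4.20 CPM in w1118, 0, 2.17 and 1.32 in hopTum, and 0.38, 0.70 and 0.238 in tuSz1. All 3 w1118 libraries lay above all others, and the log2 fold change in tuSz1 was -3.27 (SE 0.93, adjusted p = 0.0324, edgeR). Neither value speaks for the whole gene, as all reads of each were listed under 1 transcript. The only bases that belong to 1 transcript alone are 240 noncoding ones in Vha13 and 657 in Vha26. In both cases they lie at the 3′ end of the longest transcript. Among all 498 tested genes whose only transcript-specific bases form such an end, 6.22% were called lower in tuSz1 than in w1118. Of the other tested genes with several transcripts and bases of this kind, 8.35% were. The call for Vha26 was lost in each of the 6 fits without 1 library, with adjusted p-values of 0.0571 to 0.0908 (edgeR). That for Vha13 against w1118 was lost in 4 of 6, and that against hopTum also in 4 of 6.

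The remaining tested genes with several transcripts were low and were not called (edgeR). VhaSFD, for the regulatory subunit H, was at 3.4, 4.06 and 7.33 CPM on average in w1118, hopTum and tuSz1, and tuSz1 lay above w1118 in every library (log2 fold change 1.11, adjusted p = 0.122, edgeR). Vha68-1, Vha16-1 and Vha14-2, for subunits A, c and F, ran from 0 to 12.1 CPM over the 9 libraries.

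Of the proteases, CtsK1 had the most reads. It was at 657, 602 and 483 CPM in w1118, 732, 694 and 639 in hopTum, and 810, 896 and 1163 in tuSz1. The tuSz1 libraries lay above all others, with a log2 fold change against w1118 of 0.72 that missed the threshold (SE 0.28, adjusted p = 0.0979, edgeR). Without tuSz1 replicate 3 the value was 0.56 (adjusted p = 0.267, edgeR). CtsF, a cathepsin F-type cysteine protease, had reads under 1 of its 3 transcripts. In the annotation 686 of its bases, 525 of them coding, belong to 1 transcript only. It was at 20.0, 14.1 and 22.7 CPM in w1118, 33.1, 38.8 and 36.9 in hopTum, and 9.79, 16.4 and 21.9 in tuSz1. Every hopTum library lay above all others, and neither difference passed the test, at 0.94 against w1118 (adjusted p = 0.0786, edgeR) and -1.18 in tuSz1 against hopTum (adjusted p = 0.0515, edgeR). The second of these passed in 6 of the alternatives, among them the fit without tuSz1 replicate 3 (-1.47, adjusted p = 0.0324, edgeR). CtsL1, a cathepsin L-type cysteine protease, averaged 18.1, 23.5 and 14.7 CPM, and cathD, the aspartic protease cathepsin D, stayed at 2.17 CPM or below in every library. Of the exonic bases of CtsL1, 13.7% overlap CG42806 on the same strand, and 9.9% of those of cathD overlap other genes on the other strand.

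Regulators of the pump were not called in any comparison in the main fit (edgeR). The list held ATP6AP2, the 2 rabconnectin genes Rbcn-3A and Rbcn-3B, which promote the joining of V1 to V0, and Mitf, the fly counterpart of the transcription factor that drives lysosomal genes. All 4 were tested. In tuSz1 against w1118, 1 was called higher with the 50 most counted genes left out and 1 with DESeq2's Wald test. None was called in the other alternatives. Their median log2 fold changes were 0.41, 0.22 and 0.08 in hopTum against w1118, tuSz1 against w1118 and tuSz1 against hopTum.

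Other lysosomal genes were called in both directions. Of 39 listed, 38 were in the files and 23 were tested, and spin, Gal, LManIII, LManV and Fuca were at 0. In hopTum against w1118, 6 were higher and 3 lower, which is 39.1% of those tested, where 18.1% of all genes were called. In tuSz1 against w1118, 4 were higher and 2 lower (26.1%, where 16.3% of all genes were called). In tuSz1 against hopTum, 3 were higher and 4 lower (30.4%, where 9.66% of all genes were called). Their median log2 fold changes were -0.36, -0.35 and -0.24. Under total count scaling the calls were 4 higher and 3 lower, 3 and 9, and 2 and 6 in the 3 comparisons. Without tuSz1 replicate 3 they were 2 higher and 1 lower in tuSz1 against w1118, and 2 and 4 in tuSz1 against hopTum. Without w1118 replicate 2 they were 2 and 2 in hopTum against w1118, and 1 and 1 in tuSz1 against w1118. Against w1118, the calls of RNaseX25, Gba1a, LManII and CtsL2 in hopTum held in every setting that tested them, as did those of Idua and CtsL2 in tuSz1. All of these calls also held in each fit without 1 library. LManII and CtsL2 were not tested in every setting. Of the 6 fits without 1 library, 5 kept the call of Npc2a, 3 those of Hexo2 and Ids and 2 that of emp in hopTum against w1118, and 1 kept that of Sgsh in tuSz1 against hopTum.

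In hopTum, RNaseX25, a secreted and lysosomal ribonuclease, was at 77.1, 103 and 119 CPM in w1118 and 464, 666 and 507 in hopTum, against 130 to 143 in tuSz1. It rose by a log2 fold change of 2.45 against w1118 (adjusted p = 9.82e-05, edgeR). Npc2a, which carries sterols out of the lysosome, rose by 1.75 (adjusted p = 0.0088, edgeR), and Hexo2, a beta-hexosaminidase, rose by 1.32 (adjusted p = 0.0282, edgeR). Ids, which removes sulfate from glycosaminoglycans, was at 38.9 to 46.1 CPM in hopTum and at 11.2 CPM or below in every other library, a log2 fold change of 2.24 against w1118 (adjusted p = 0.0182, edgeR). Gba1a, a glucocerebrosidase, was lower in both mutants, by log2 fold changes of -2.11 in hopTum (adjusted p = 4.95e-04, edgeR) and -1.0 in tuSz1 (adjusted p = 0.0303, edgeR). The tuSz1 call was lost in 5 of the 6 fits without 1 library, at -0.92 without tuSz1 replicate 3 (adjusted p = 0.093, edgeR). emp, a scavenger receptor, was lower in hopTum by -1.26 (adjusted p = 0.0297, edgeR).

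In tuSz1, the lysosomal alpha-mannosidases LManIV and LManVI were far above both other genotypes. LManVI was at 171, 177 and 35.8 CPM in w1118, 143, 99.5 and 3.42 in hopTum, and 1678, 1676 and 5596 in tuSz1, a log2 fold change of 4.54 against w1118 (adjusted p = 0.0459, edgeR). Without tuSz1 replicate 3 it was 3.72 (adjusted p = 0.171, edgeR), and the call was lost in each of the 6 fits without 1 library. LManIV was at 20.7 to 23.4 CPM in tuSz1 and at 2.06 CPM or below elsewhere, a log2 fold change of 4.39 (adjusted p = 0.0133, edgeR). Whether reads are split between these related genes was not tested, as no sequences were compared. DNaseII, the acid nuclease of the lysosome, rose by 2.16 (adjusted p = 0.0178, edgeR), at 145, 192 and 367 CPM in tuSz1, and without replicate 3 the value was 1.68 (adjusted p = 0.0673, edgeR). Idua, an iduronidase, was lower in tuSz1 by -2.31 (adjusted p = 0.00423, edgeR), and Sgsh, a sulfamidase, was lower in tuSz1 than in hopTum by -1.0 (adjusted p = 0.038, edgeR). Lower than 5 CPM on average were LManII, CtsL2 and CtsL3, named because they complete the count. LManII was called lower in hopTum, CtsL2 higher in both mutants and CtsL3 higher in hopTum, each against w1118 (edgeR). CtsL2 and CtsL3, cathepsin L-like genes, were at 0 to 6 and 9 to 35 reads in w1118. In hopTum they had 50 to 74 and 63 to 113 reads, and CtsL2 had 43 to 94 in tuSz1.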

How the data were processed

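The deposited files hold raw read counts per RefSeq transcript, 34111 entries per library. Per the submitters' processing notes, FastQC 0.11.8, HISAT2 2.1.0 and featureCounts 1.6.3 were used with the dm6 genome; the strand setting and the handling of reads shared between transcripts are not given in the sources used here, so reads of overlapping genes cannot be told apart. Entries were matched to gene symbols through a RefSeq gene table (33766 with their version, 146 without, 199 not, the last holding 0.421% of counts) and summed per gene. Transcript structures came from Ensembl's BDGP6 (dm6) annotation, which listed as many transcripts as the files for all 38 members.

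Counts were tested with edgeR 4.0.16 in R 4.3.3: TMM factors, default filter by genotype, robust quasi-likelihood fit over all 9 libraries with 1 coefficient per genotype, and Benjamini-Hochberg adjustment over the 9106 genes tested in each of 3 comparisons. Standard errors were taken as |log2 fold change| over the root of the quasi-likelihood F. CPM use TMM-adjusted library sizes. The procedure was tested on simulated data. Groups and replicate numbers came from the sample titles. Replicates of a genotype differed by more than sampling noise (chi-square of 49.8 to 245.6 per degree of freedom).

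Every member was accounted for; values per library are given for members called in any comparison whose mean over the 9 libraries was 5 CPM or more, and pump regulators and other lysosomal genes are named where they met the same conditions; marker lists are given by sums and counts, with examples chosen after their values were seen. Vha13, Vha26, Vha14-1, Vha36-1, CtsK1, CtsF, ATP6AP2, LManII, CtsL2 and CtsL3 were given values outside this rule after these had been seen. Members and lists were chosen with earlier results of these data known. Alternatives were other scalings (size factors of DESeq2 1.42.0, or total counts), removal of the 50 most counted genes, other filters (none, or a mean of 50 counts or more), DESeq2's Wald test, separate fits for each pair of genotypes, a fit to single-transcript genes, a replicate block, and omission of each library in turn. Applying them to the lysosomal list and summing tubule markers without Uro were chosen after seeing the data. Python 3.11.15 with pandas 2.3.3, numpy 2.4.6 and matplotlib 3.10.9 made the tables and plots. No sequences and no promoter motifs were analysed here.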

Additional observations from a re-analysis of the deposited data

How the results depend on the processing

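In hopTum against w1118, 1 member was called in all settings that kept every library and 1 to 2 when a library was left out, the second being Vha68-1, lower without hopTum replicate 2. In tuSz1 against w1118, where 4 were called, a mean count of at least 50 gave 2 (Vha13 and Vha26 were not tested there), single-transcript genes only gave 1, and leaving out a library gave 1 to 2. In tuSz1 against hopTum, where 3 were called, total count scaling gave 5, the DESeq2 Wald test gave 5, single-transcript genes only gave 1, and leaving out a library gave 1 to 3. With the replicate number as a block, 1, 1 and 1 members were called in the 3 comparisons; samples of the same number did not deviate together (correlations of -0.434 to 0.209), so the numbers were not taken as a pairing. Calls of Vha36-2 in hopTum and of Vha100-4 in tuSz1 held in every setting tried. Directions of uncalled values turned under total count scaling for CtsK1 (-0.13 in hopTum and -0.10 in tuSz1 against w1118), Vha14-1 (-0.07 in hopTum against w1118) and Vha36-1 (-0.09 in tuSz1 against hopTum). In hopTum against w1118 they turned when 1 library was left out for Vha100-4 (range -0.44 to 0.50, with 0.50 without w1118 replicate 1 and 0.16 without hopTum replicate 3) and Vha13 (range -0.78 to 0.22, with 0.16 without w1118 replicate 3 and 0.22 without hopTum replicate 3). CtsF ranged from -0.53 to 0.02 in tuSz1 against w1118, with 0.02 without tuSz1 replicate 1. Of the other values of named members, 380 kept their direction and side of the threshold, 31 lost and 11 gained a call. Total count scaling lowered the share of calls that were higher, over all genes, from 63.3% to 37.5%, from 61.2% to 19.8% and from 57.2% to 27.6% in the 3 comparisons. The cause of these changes was not tested. Depth limits Vha13 and Vha26, whose tuSz1 libraries held at most 8 reads.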
